A study of Mus musculus with 16 samples.

Results

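Fgfr2 and Galnt2l are the names of 2 gene models that each cover several megabases of the mouse genome. Both were selected on the deposited pair tables, as every line whose RNA tag carries one of these names, and they were picked because they head those tables. They are 2 of the 10176 RNA names in Input and of the 10660 in H3K27me3-RADIP. They hold 1.68% of all pairs in Input (21956 of 1305107) and 2.13% in H3K27me3-RADIP (30200 of 1415135). The number of pairs under these names is therefore a description and was not tested.

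In RADIP, RNA and the chromatin DNA close to it are ligated through an adaptor, and an antibody then pulls down the ligated chromatin. The antibody used was to H3K27me3, the repressive histone mark that PRC2 deposits. The cells of both groups were mESCs of the line PGK12.1, grown with Leukemia Inhibitory Factor and crosslinked in 1% formaldehyde, with no further treatment. The H3K27me3-RADIP group (RADIP in the values below) is the antibody-selected material, and the Input group is the material kept without antibody selection. Each group has 8 labelled libraries, while the paper describes 4 biological replicates a group. Which libraries belong to which replicate could not be worked out. The authors merged them into a single table of significant pairs, so there is no replicate error, no p-value is given, and every interval below is a 95% interval that covers counting error only. Every line pairs an RNA tag with a DNA tag, pairs are grouped by 25-kb DNA bin, and no bin of either name holds fewer than 9 pairs.

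FGFR2 is a receptor tyrosine kinase that binds fibroblast growth factors and passes the signal on through the adaptor FRS2 and the RAS and MAP kinase pathway. In mESCs, FGF signalling is known for moving cells out of the pluripotent state. GALNT2 is a Golgi enzyme that attaches the first sugar of mucin-type O-glycans to proteins. CtBP2, whose gene turns out to lie under most of the Fgfr2 tags, is a transcriptional corepressor. RNA tags in such data come mostly from introns. The name a tag receives depends on which gene model its position is assigned to.

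In mm10 the Fgfr2 model (ENSMUSG00000030849.18) lies on chromosome 7, minus strand, at 130162451 to 133123350, with a length of 2.96 Mb. A single transcript of its 27 in the GENCODE release used here spans that length. Its first 2 exons, at 133123141 to 133123350 and at 133081757 to 133081860, lie inside Ctbp2 (132987563 to 133124354), and an intron of 2.91 Mb then leads to exon 3 in Fgfr2 proper. The longest of the other transcripts covers 103.8 kb, and RefSeq gives Fgfr2 a span of 104.4 kb (130162451 to 130266808). The Galnt2l model (ENSMUSG00000092329.1) lies on chromosome 8, plus strand, at 119910841 to 124345722, with a length of 4.43 Mb, and has 1 transcript, which the annotation tags as a readthrough transcript. The identifier carries the name Gm20388 in the release used here. Exon 1 lies inside Usp10, which encodes a deubiquitinase, and after an intron of 4.38 Mb the other 15 exons lie in Galnt2 (124231391 to 124345724). These are the longest of 47 models above 1 Mb that have pairs in the tables. The longest of the other 45 covers 2.27 Mb, and the most pairs any of these 45 has is 3281 in Input and 3047 in RADIP, in both cases for Pde4d.

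The exon junctions below are what makes both models long, and they are shown for that reason. Each is 30 bases from the mm10 reference, 5′ to 3′ in the sense of the RNA, with the last 15 bases of the upstream exon in lower case and the first 15 of the downstream exon in capitals. The Fgfr2 junction joins chr7:133081757-133081771 to chr7:130172925-130172939 on the minus strand, and the Galnt2l junction joins chr8:119910925-119910939 to chr8:124295358-124295372 on the plus strand.
Fgfr2 junction: gacgcatttctatcgTGTATCCATCGAGAT
Galnt2l junction: ctccacaacccacagGGTGACTGGAATGAC
The authors mapped tags with BWA, which does not split a tag over an intron, so no tag in the tables tests either junction. Tags in the exons can be counted. Exon 1 of the spanning Fgfr2 transcript, inside Ctbp2, held 62 pairs in Input and 53 in RADIP, and exon 2 held 8 and 4. Beyond the long intron, exons 3, 4 and 5 held 0 pairs in both libraries, exon 6 held 1 and 0, and exon 7 held 5 and 3. Exon 1 of Galnt2l lies where every tag was named Usp10, so no count under the Galnt2l name is possible there. Of its exons in Galnt2, the last held the most, 8 and 9 pairs.

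Of the pairs named Fgfr2, 98.9% in Input and 99.3% in RADIP had an RNA tag labelled intronic, and for Galnt2l the shares were 99.8% in both libraries. Most of these introns belong to other genes on the same strand. Within or across an edge of the Fgfr2 model lie 14 other protein-coding genes of that strand, and their spans held 83.5% of the pairs in Input (9031) and 84.6% in RADIP (12724). Within or across an edge of the Galnt2l model lie 38, of which Galnt2 is one, and 33 of them held tags named Galnt2l, with 67.2% (7488) and 67.7% (10267) of the pairs.

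Apart from Usp10, no intronic pair carried the name of one of these nested genes. Under their own names the 14 genes in the Fgfr2 model had 67 pairs in Input and 57 in RADIP, none of them intronic. For the 38 genes in the Galnt2l model, the own-name pairs numbered 954 and 1351, from 14 genes in Input and 16 in RADIP, with 606 and 859 for Usp10. All of their 489 and 660 intronic pairs belonged to Usp10, which starts 5′ of the Galnt2l model. Where Usp10 and Galnt2l overlap, 604 tags in Input and 858 in RADIP were named Usp10 and 0 were named Galnt2l. Ctbp2 had 42 and 49 pairs under its own name, and Ate1 and Galnt2 had 0 in both libraries.

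The same assignment was found for nearly all pairs in overlapping coding genes in the tables. Of 26529 intronic pairs in Input whose RNA tag lay inside at least 2 protein-coding models of the same strand, 26529 carried the name of the model with the lowest start coordinate. In RADIP this held for 33897 of 33906. Without Fgfr2 and Galnt2l the counts were 10101 of 10101 and 10986 of 10995. The longest model gave the name in 64.5% and 62.8% of these remaining pairs. The start of the Fgfr2 model, 130162451, is lower than that of Ctbp2, 132987563.

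**Figure D1:**
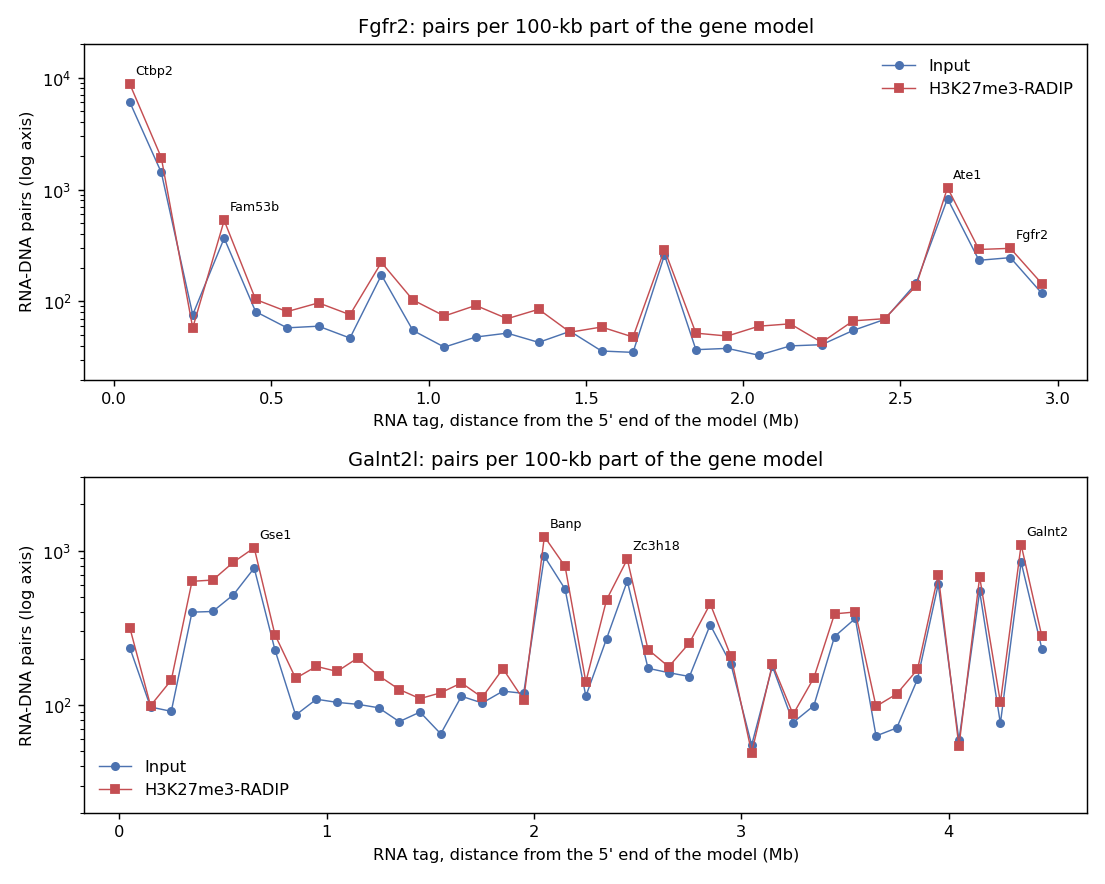
Number of RNA–DNA pairs (log axis) in each 100-kb part of the Fgfr2 and Galnt2l models, by distance of the RNA tag from the 5′ end of the model in Mb. Circles are Input and squares are RADIP, each a merged library, and the names are coding genes in the leading parts. The first part of Fgfr2 holds 6033 and 8759 pairs, while the Galnt2l pairs are spread over many genes.

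Along the Fgfr2 model the pairs were concentrated at the 5′ end. When the model was divided into 30 parts of 100 kb counted from the 5′ end, the first part held 6033 pairs in Input, or 55.8% (Wilson interval 54.8 to 56.7), and 8759 in RADIP, or 58.2% (57.4 to 59.0). The second part held 1422 and 1930 pairs. The whole of the first part lies in Ctbp2, and the 3′ end of Ctbp2 lies in the second.

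The third-ranking part of the Fgfr2 model was the 27th, near the 3′ end, with 829 pairs in Input and 1039 in RADIP. It lies in Ate1, the gene of an arginyltransferase that attaches arginine to protein N termini. The 3 leading parts together held 76.6% and 78.0% of the Fgfr2 pairs. Of the 30 parts, 20 held fewer than 100 pairs in Input and 18 in RADIP, and the lowest held 33 and 43.

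The Galnt2l pairs were spread over more genes. Of its 45 parts, 9 were needed to reach 50% of the pairs in each library, compared with 1 part for Fgfr2. The leading part was the 21st, in Banp, with 920 pairs in Input, or 8.26% (7.77 to 8.79), and 1236 in RADIP, or 8.16% (7.73 to 8.60). Next came the 44th part, in Galnt2, with 843 and 1095 pairs, and the 7th, in Gse1, with 773 and 1046. The same 3 parts led in both libraries, and together they held 22.8% and 22.3% of the pairs.

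Other same-strand genes annotated in the leading parts had few pairs of their own. In the first 2 parts of Fgfr2, B930086L07Rik, which lies inside Ctbp2, had 31 and 37 pairs, the antisense RNA Gm15718 had 13 and 18, and 1500002F19Rik had 0 in Input and 15 in RADIP. In the Banp part, BC048644 had 7 and 11, and in the Gse1 part, Gm26971 had 8 and 0. Gm45719, Mir7687, Gm10614, Gm26739 and Mir7237 had 0 in both. Intronic pairs under the own name numbered 12 and 16 for Gm15718, 0 and 15 for 1500002F19Rik, and 3 and 6 for BC048644.

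Pairs were next counted by the gene whose span, within the model, holds the RNA tag. Every such pair was listed because its bin passed the limit under the pooled name, so a source with few tags is seen mostly in bins that other sources filled. Tags in the span of Fgfr2 fell in 116 bins in Input and 133 in RADIP but reached 9 pairs in 6 and 9 of them, while Ctbp2 tags fell in 376 and 541 bins and reached 9 pairs in 232 and 385. The 9 pairs are the lowest count under the pooled name, and whole names were listed with fewer, such as Fgfr3 with 7 and 8. Values by source below therefore describe the listed pairs, not what each gene would give under its own name. Ctbp2 held 7128 of the Fgfr2 pairs in Input, or 65.9% (65.0 to 66.8), and 10299 in RADIP, or 68.5% (67.7 to 69.2). Per length this was 40.2 PPM per kb (PPM, pairs per 1000000 pairs of the library) in Input and 53.6 in RADIP.

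The RefSeq span of Fgfr2 itself held 319 pairs in Input, or 2.95% (2.65 to 3.28), and 392 in RADIP, or 2.61% (2.36 to 2.87). Its level was 2.34 and 2.65 PPM per kb. Ate1 held 978 and 1224 pairs, at 5.82 and 6.71 PPM per kb, and Fam53b held 373 and 537, at 2.81 and 3.73. The levels of the Fgfr2 span and of Fam53b thus lay far below that of Ctbp2.

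Among Galnt2l tags, Gse1 held the most pairs, 2045 in Input (18.4%, 17.7 to 19.1) and 3116 in RADIP (20.6%, 19.9 to 21.2). GSE1 is a coiled-coil protein found with a histone deacetylase and demethylase corepressor complex. Banp, which encodes a nuclear DNA-binding protein, held 1213 (10.9%) and 1643 (10.8%). Galnt2 itself held 1059 (9.51%, 8.98 to 10.1) and 1347 (8.89%, 8.44 to 9.35).

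Levels per length ordered the Galnt2l genes differently. Cox4i1, a subunit of the respiratory chain enzyme cytochrome c oxidase, had the highest level, with 15.1 PPM per kb in Input and 17.1 in RADIP from 118 and 145 pairs over 5.99 kb. Rab4a, a small GTPase of endosome recycling, had 12.2 and 12.4, Banp 11.7 and 14.6, and Urb2, a ribosome biogenesis gene, 11.1 and 13.2. Galnt2 had 7.10 and 8.33, and Gse1 had 4.44 and 6.24 over its 352.9 kb. No level under the Galnt2l name came near the 40.2 and 53.6 of Ctbp2.

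Tags between genes were counted next. Outside every same-strand coding gene lay 1471 of the Fgfr2 pairs in Input and 1928 in RADIP, at 0.530 and 0.641 PPM per kb. For Galnt2l these pairs numbered 3647 (32.8% of its pairs) and 4889 (32.3%), at 0.899 and 1.11. The main sources lay above these levels, and some genes with few tags lay below them, among them Cpxm2 with 0.264 and 0.562 PPM per kb. Within 50 kb downstream of the 3′ end of one of these genes lay 47.2% and 44.6% of the Fgfr2 pairs between genes, and 56.1% and 53.6% of those of Galnt2l. Inside a gene on the opposite strand lay 49.1% and 48.7%, and 35.8% and 32.1%.

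The most frequent tag in each of 6 genes is printed here as an example of what the names stand for. They are the leading sources Ctbp2, Gse1 and Banp, the genes Fgfr2 and Galnt2 themselves, and Urb2, a smaller source. Sequences are from the mm10 reference, 25 bases, 5′ to 3′ in the sense of the RNA, and each is intronic.
Ctbp2 (chr7:133067552-133067576, minus strand): acagatttatttatcaccttgtcat
Fgfr2 (chr7:130246888-130246912, minus strand): ctcgtagcttctggaactttctccc
Gse1 (chr8:120238653-120238677, plus strand): tctgatggtgatgcagactctgcca
Banp (chr8:121956997-121957021, plus strand): tggctgttggatgcaagtgtgtgat
Urb2 (chr8:124026965-124026989, plus strand): ctcaaacagttttgattctaagatt
Galnt2 (chr8:124235728-124235752, plus strand): tgagaccctgttctaaaacaatggt
The Ctbp2 tag was seen in 25 pairs in Input, with DNA tags in 20 bins, and in 46 pairs in RADIP, with DNA tags in 36 bins. The most frequent tag in the span of Fgfr2 was seen in 4 and 2 pairs. The Urb2 tag was seen in 5 pairs in Input and 17 in RADIP, and the Banp tag in 7 and 12. The Gse1 tag was seen in 7 and 8 pairs and the Galnt2 tag in 7 and 3. Such tags were a small part of the pairs, which came from 8360 and 10925 distinct tag positions for Fgfr2 and from 9769 and 12715 for Galnt2l. Pairs that repeat both tag positions of another pair made up 7.66% and 9.59% of the Fgfr2 pairs and 6.94% and 9.54% of the Galnt2l pairs.

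**Figure D2:**
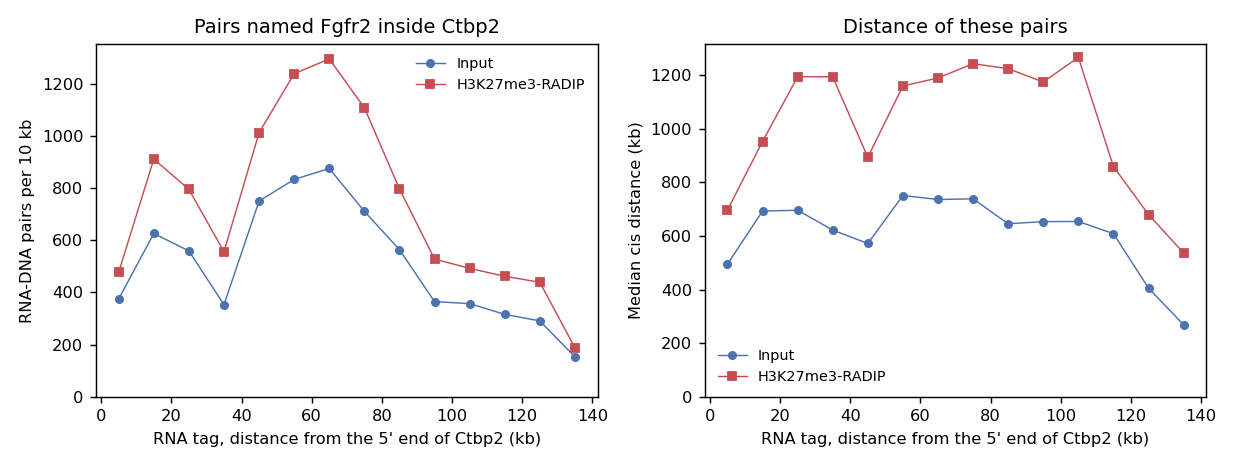
Pairs named Fgfr2 with an RNA tag inside Ctbp2, in 10-kb steps from the 5′ end of Ctbp2. Left, number of pairs per step, and right, median cis distance to the DNA tag in kb, for the merged Input (circles) and RADIP (squares) libraries. Pairs are most frequent 60 to 70 kb from the 5′ end, with 875 and 1295 pairs, and the RADIP median lies above the Input median in every step.

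Inside Ctbp2 the pairs came from its whole length and not from a single site. In steps of 10 kb from the 5′ end of Ctbp2, the step from 60 to 70 kb held the most pairs, 875 in Input and 1295 in RADIP. The first step held 375 and 478 and the last 153 and 188. Only 135.8 kb of Ctbp2 lies in the model, so these end steps are shorter than 10 kb and their counts are not comparable. The median distance between RNA and DNA tag was shortest in the last step, 268 kb in Input and 536 kb in RADIP, and above 1 Mb in RADIP in 8 of the 14 steps.

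The distance between the RNA tag and the DNA tag differed between the names. For Fgfr2 the Input median was 479 kb, with quartiles of 75.004 and 1612 kb, and the RADIP median was 745 kb, with quartiles of 167 and 2786 kb. For Galnt2l the Input median was 114 kb, with quartiles of 10.4 and 551 kb, and the RADIP median was 157 kb, with quartiles of 17.5 and 644 kb. The median was longer in RADIP for both names, as it was for 69.2% of the 7256 names for which both libraries held 10 or more cis pairs, so the direction is that of most names.

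Long-range cis pairs, over 100 kb, made up 72.02% of the Fgfr2 cis pairs in Input (71.2 to 72.9) and 79.4% in RADIP (78.8 to 80.1). For Galnt2l the shares were 52.0% (51.1 to 53.0) and 56.5% (55.7 to 57.3). Over all names they were 36.4% and 43.7%. The share of Fgfr2 pairs over 1 Mb was 34.4% (33.5 to 35.3) and 44.4% (43.6 to 45.1), which ranked 2nd of 200 names with at least 1000 cis pairs in Input and 3rd of 235 in RADIP. For Galnt2l it was 15.6% and 17.6%, which ranked 31st and 48th, and over all names it was 4.61% and 7.33%.

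**Figure D3:**
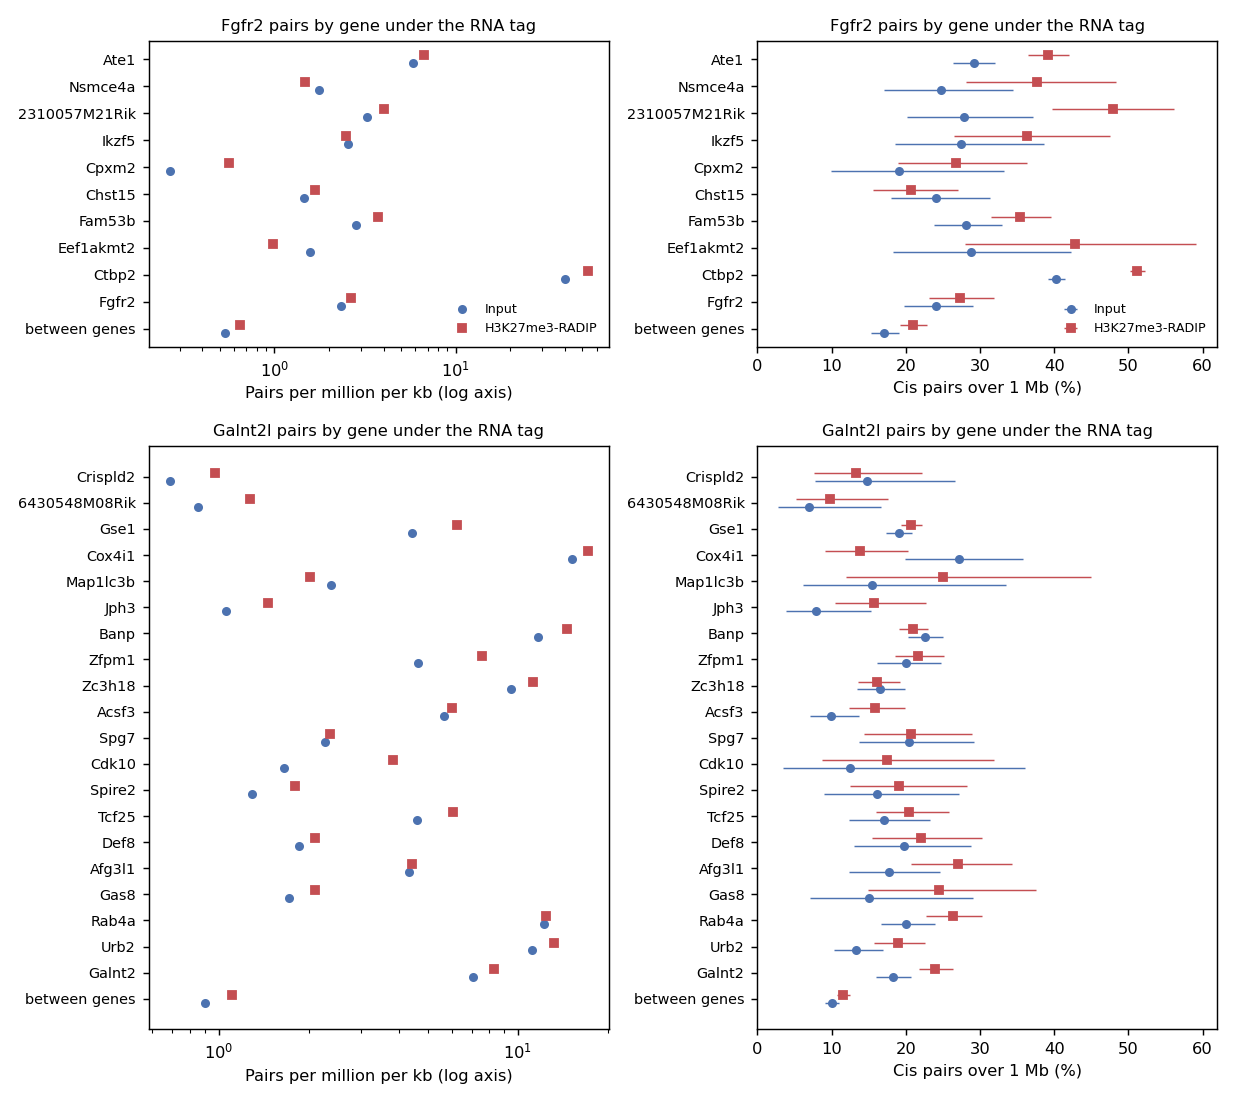
Pairs named Fgfr2 (top) and Galnt2l (bottom) by the coding gene that holds the RNA tag, for genes with at least 50 pairs in both libraries together. Left, PPM per kb (log axis), and right, share of cis pairs over 1 Mb with 95% Wilson intervals, for Input (circles) and RADIP (squares). Ctbp2 stands apart on the left, with 40.2 and 53.6 PPM per kb, and its share over 1 Mb, 40.3% and 51.2%, stands beside 24.1% and 27.3% for the span of Fgfr2, whose pairs were listed under the same pooled name.

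Most far pairs of the Fgfr2 name came from Ctbp2 tags, which also made up most of its pairs at all distances. Of the Fgfr2 pairs over 1 Mb, Ctbp2 gave 77.1% in Input (75.7 to 78.4) and 79.0% in RADIP (78.0 to 80.0), and the span of Fgfr2 gave 2.07% and 1.61%. Of all Fgfr2 pairs, Ctbp2 gave 65.9% and 68.5% and the span of Fgfr2 2.95% and 2.61%. Pairs of Ctbp2 tags had a median distance of 639 kb in Input and 1076 kb in RADIP, and 40.3% (39.1 to 41.4) and 51.2% (50.3 to 52.2) of them were over 1 Mb. Pairs of tags in the span of Fgfr2 had a median of 228 and 248 kb, and 24.1% (19.8 to 29.1) and 27.3% (23.1 to 31.9) were over 1 Mb. These distances are not a test between the sources, since the far bins with tags from the span of Fgfr2 were listed under the pooled name. With the tags inside Ctbp2 left out, the share of Fgfr2 pairs over 100 kb was 59.6% in Input and 64.85% in RADIP.

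For Ate1 tags the median was 388 kb in Input and 554 kb in RADIP, and 29.1% (26.4 to 32.1) and 39.2% (36.5 to 42.0) of the pairs were over 1 Mb. Fam53b tags had 28.2% (23.8 to 32.9) and 35.4% (31.5 to 39.5). Among sources with fewer pairs, 2310057M21Rik had 47.9% (39.8 to 56.1) and Eef1akmt2 42.9% (28.0 to 59.1) in RADIP, and both intervals overlap that of Ctbp2. The pairs of tags between genes were shorter, with medians of 87.5 and 152 kb and 17.1% and 20.9% over 1 Mb. Of the 30 parts of the Fgfr2 model, 22 had a longer median in RADIP than in Input, against 69.2% of all names. The part medians ran from 4.25 to 662 kb in Input and from 14.4 to 1105 kb in RADIP, and the first part had the longest median in both libraries.

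The 3 main sources of Galnt2l had 18.2% (Galnt2, 16.0 to 20.7), 19.0% (Gse1, 17.4 to 20.8) and 22.6% (Banp, 20.3 to 25.03) of their pairs over 1 Mb in Input. In RADIP the shares were 23.98% (21.8 to 26.3) for Galnt2, 20.8% (19.4 to 22.2) for Gse1 and 20.998% (19.1 to 23.0) for Banp. Only for Galnt2, of these 3, did the intervals of the libraries not overlap. Of the 45 parts, 38 had a longer median in RADIP, against 69.2% of all names, and the part medians ran from 2.47 to 246 kb in Input and from 14.6 to 309 kb in RADIP.

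The DNA tags paired with Ctbp2 tags lay mostly outside Ctbp2. Of the cis pairs with an RNA tag in Ctbp2, 17.6% in Input and 11.1% in RADIP had the DNA tag in Ctbp2 as well. For tags in the span of Fgfr2 this was 29.5% and 26.0%, for Galnt2 37.6% and 29.5%, and for Gse1, the longest of these genes, 46.0% and 44.7%. Other sources had a higher share in RADIP, such as Chst15 with 23.4% and 35.2% and Zfpm1 with 23.4% and 24.8%.

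**Figure D4:**
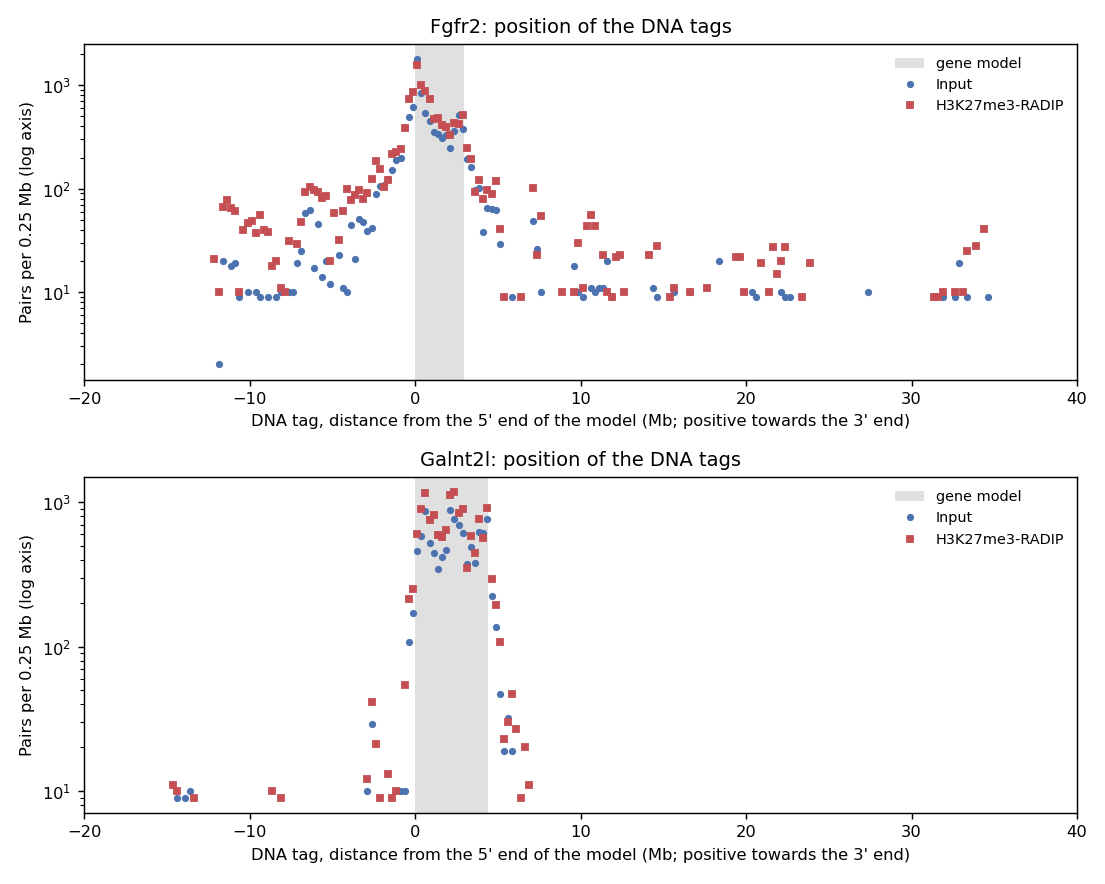
Number of pairs per 0.25 Mb (log axis) by the position of the DNA tag, as distance in Mb from the 5′ end of the Fgfr2 or Galnt2l model, with the model shaded. Circles are Input and squares are RADIP, windows with 0 pairs are not drawn, and 5 bins of Galnt2l in RADIP lie outside the axis. The Fgfr2 pairs extend over 10 Mb beyond both ends of the model, while 91.7% and 89.4% of the Galnt2l pairs stay inside it.

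The Fgfr2 pairs fell in 376 DNA bins in Input and 542 in RADIP, with a median of 16 and 14 pairs per bin and at most 279 and 255. Beyond the 5′ end, the side of Ctbp2, lay 162 bins with 3168 pairs (29.3%) in Input and 272 bins with 5374 pairs (35.7%) in RADIP. Beyond the 3′ end lay 96 bins with 1204 pairs (11.1%) and 150 with 2043 (13.6%). The bins farthest out were 11.7 and 12.1 Mb from the 5′ end and 31.6 and 31.4 Mb from the 3′ end.

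The bins added in RADIP lay mostly over 1 Mb from the model. Up to 1 Mb beyond the 5′ end there were 40 bins in each library, with 1696 and 2206 pairs. From 5 to 10 Mb there were 32 bins with 340 pairs in Input and 80 bins with 962 pairs in RADIP, and from 10 to 20 Mb 8 bins with 78 pairs and 34 bins with 396. Beyond the 3′ end, the bins over 5 Mb away numbered 11, 11 and 7 in the bands 5 to 10, 10 to 20 and over 20 Mb in Input, and 28, 26 and 17 in RADIP.

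The bins of the libraries overlapped in part. Of the Fgfr2 bins, 310 were shared, which is 82.4% of the Input bins and 57.2% of the RADIP bins. Those listed in RADIP alone numbered 232, with 138 beyond the 5′ end and 92 beyond the 3′ end, and held 18.3% of its pairs. The 66 listed in Input alone held 6.26%. Bins listed in 1 library alone were thinly filled, with a median of 11 pairs in RADIP and 10 in Input, close to the lowest count of 9, so a bin absent from a list may hold pairs below the limit.

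The Galnt2l bins were fewer and fuller. They numbered 233 in Input and 266 in RADIP, with a median of 44 and 53.5 pairs. Inside the model lay 175 in both libraries, with 91.7% and 89.4% of the pairs. Shared bins numbered 221, or 94.8% of the Input bins and 83.1% of the RADIP bins. Over 5 Mb beyond the 5′ end there were 3 bins with 28 pairs in Input and 10 in RADIP, of which 5 with 49 pairs lay over 20 Mb away and the farthest 49.5 Mb away.

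Because a bin is listed under a name, its pairs can come from several genes. Of the Fgfr2 bins, 349 of 376 in Input and 490 of 542 in RADIP drew tags from more than 1 source, counting the tags between genes as a source. In 120 bins (31.9%) in Input and 139 (25.6%) in RADIP, no source reached 9 pairs, the lowest number in any listed bin of this name. These bins held 1303 and 1531 pairs. Ctbp2 was the largest source in 323 bins (85.9%) and 495 bins (91.3%), and reached 9 pairs alone in 232 and 385. The span of Fgfr2 was the largest source in 5 and 6 bins and reached 9 pairs in 6 and 9.

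For Galnt2l every bin drew on several sources, 8 as the median in both libraries and at most 17 and 18. In 43 bins (18.5%) in Input and 64 (24.1%) in RADIP no source reached 9 pairs. Tags between genes were the largest source in 124 and 128 bins, Gse1 in 43 and 52, Galnt2 in 31 and 47 and Banp in 7 and 13. Galnt2 alone reached 9 pairs in 24 and 31 bins.

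Trans pairs were listed for Fgfr2 in RADIP, 15 pairs in the bin at 3150000 to 3174999 of chromosome 11, and 12 of them had the RNA tag in Ctbp2. In the same bin 27 other names had trans pairs, and the trans pairs of all names there numbered 396. Galnt2l had 0 trans pairs in both libraries, and Fgfr2 had 0 in Input.

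**Figure D5:**
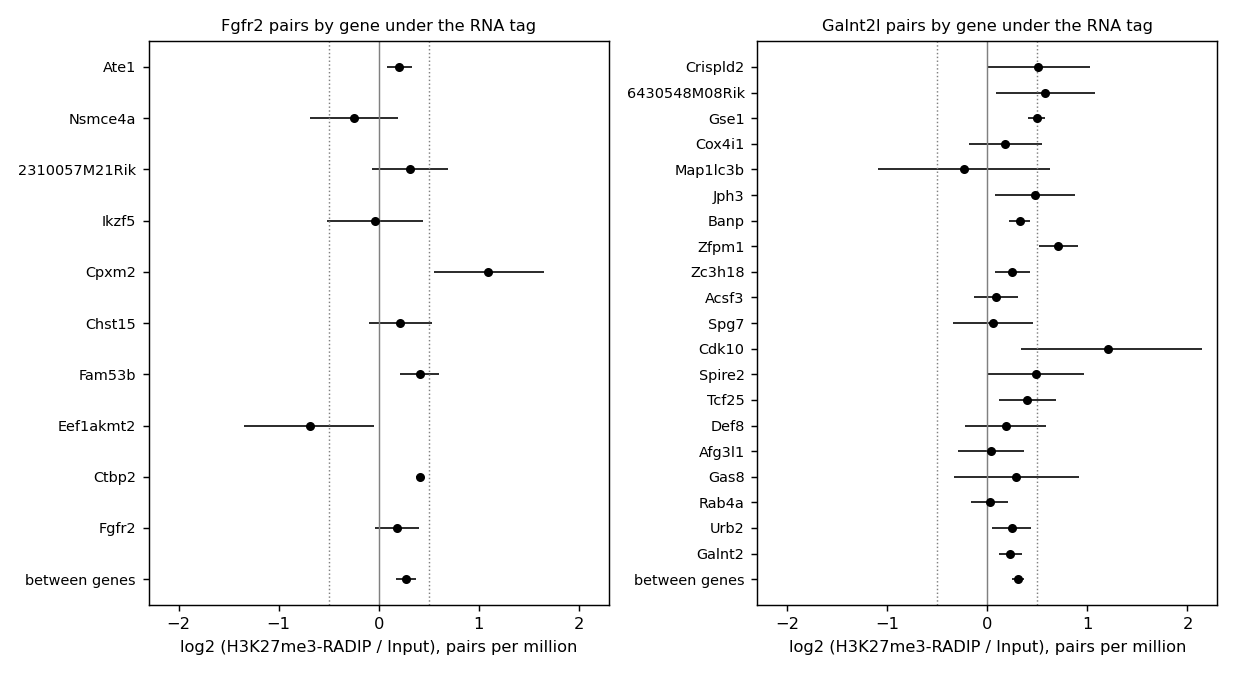
log2 ratio of PPM, RADIP over Input, for the pairs named Fgfr2 (left) and Galnt2l (right) by the coding gene that holds the RNA tag, for genes with at least 50 pairs in both libraries together. Bars are 95% counting intervals, and dotted lines mark the fold limit of 0.5. Cpxm2 is the highest of the Fgfr2 genes, at 1.09, and Ctbp2 lies at 0.41.

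Between the merged libraries, both names had more pairs in RADIP relative to depth. Fgfr2 had 8291 PPM in Input (Poisson interval 8136 to 8449) and 10631 in RADIP (10462 to 10802). The log2 ratio was 0.36 (0.32 to 0.39). Galnt2l had 8532 (8374 to 8692) and 10710 (10540 to 10882), a log2 ratio of 0.33 (0.29 to 0.36). Neither name reached the fold limit of 0.5 on the log2 scale. That limit is the one in the study's methods, which pair it with an adjusted P-value that could not be computed here. Of 8756 names found in both libraries with at least 10 pairs together, 17.5% were higher by at least that limit and 25.5% were lower, with a median log2 ratio of -0.09. Over the 190 names with at least 1000 pairs in both libraries, the median was 0.03. These ratios compare 2 merged libraries, not replicated conditions, and Input and RADIP are fractions of the same lysate.

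Among the sources under the Fgfr2 name, Ctbp2 had a log2 ratio of 0.41 (0.37 to 0.46) and Fam53b of 0.41 (0.22 to 0.60), while Ate1 had 0.21 (0.08 to 0.33) and the span of Fgfr2 0.18 (-0.04 to 0.40). Cpxm2, a member of the carboxypeptidase family, had 42 pairs in Input and 97 in RADIP, a log2 ratio of 1.09 (0.55 to 1.65). Eef1akmt2, which encodes a lysine methyltransferase of a translation elongation factor, had 52 and 35 pairs, a log2 ratio of -0.69 (-1.35 to -0.04). Of the 10 sources with at least 50 pairs, Cpxm2 was higher and Eef1akmt2 lower by the fold limit. Of 5540 names with that many pairs, 822 were higher and 1301 lower.

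Under the Galnt2l name, 4 of 20 sources with at least 50 pairs were higher by the fold limit and none was lower. Of 5540 names with that many pairs, 822 were higher and 1301 lower. Zfpm1, which encodes a zinc finger cofactor of GATA factors, had 334 and 592 pairs, a log2 ratio of 0.71 (0.51 to 0.91). Cdk10, a cyclin-dependent kinase, had 16 and 40 pairs, 1.21 (0.34 to 2.14). The others were 6430548M08Rik at 0.57 (0.08 to 1.08) and Crispld2 at 0.50 (-0.01 to 1.02), whose interval includes 0. Gse1 lay just below the limit at 0.49 (0.41 to 0.57). Galnt2 had 0.23 (0.11 to 0.35), Banp 0.32 (0.21 to 0.43) and Rab4a 0.02 (-0.16 to 0.21). Irf8, a transcription factor of myeloid cells, had 9 and 34 pairs and was under 50 pairs in all. By parts, 15 of 45 of Galnt2l and 9 of 30 of Fgfr2 were higher by the limit, and 0 and 1 lower. Over all names 17.5% were higher and 25.5% lower. Sources and parts were listed under the pooled name, so their counts and those of whole names are not like for like.

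The names with DNA bins most like those of Fgfr2, by the Jaccard index (shared bins over all bins of both names), are given next. In Input these were Dock1 at 0.22 (87 bins, 23.1% of those of Fgfr2 and 82.9% of those of Dock1), Tacc2 at 0.10, Mgmt at 0.09, Kcnq1ot1 at 0.06 and Inpp5a at 0.05. In RADIP Kcnq1ot1, the long noncoding RNA of an imprinted domain, came first at 0.30, followed by Dock1 at 0.22, Mgmt at 0.20, Tacc2 at 0.08 and Inpp5a at 0.06. The bins that Fgfr2 and Kcnq1ot1 shared numbered 32 in Input (8.51% of those of Fgfr2 and 16.9% of those of Kcnq1ot1) and 220 in RADIP (40.6% and 53.9%). Of the 232 Fgfr2 bins listed in RADIP alone, 125 were bins of Kcnq1ot1 in that library and 64 were bins of Kcnq1ot1 in Input. For Mgmt, the gene of a DNA repair enzyme, these numbers were 62 and 54, for Dock1 22 and 14, for Inpp5a 18 and 12, and for Tacc2 0 and 1. Fgfr2 and Kcnq1ot1 have more bins in RADIP, 542 and 408, than in Input, 376 and 189. Tacc2 lies inside the Fgfr2 model, and Dock1, Mgmt and Inpp5a lie beyond its 5′ end on the same chromosome. Whether bins are shared beyond what position on the chromosome gives was not tested.

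For Galnt2l, Ankrd11 was the most alike in both libraries, with an index of 0.37 in Input and 0.45 in RADIP. All of the 87 Ankrd11 bins in Input and 121 of 122 in RADIP were bins of Galnt2l. Slc7a5, an amino acid transporter gene, came second, at 0.16 and 0.22, with all of its 38 and 59 bins shared. Usp10 (0.11 and 0.14) and Mbtps1 (0.08 and 0.12) followed, with Klhdc4 (0.07) in Input and Cmip (0.18) in RADIP. Usp10 overlaps the 5′ end of the model, and the Galnt2l bins include 175 inside the model in both libraries. A name with bins in that span can share them through position alone, and sharing beyond position was not tested.

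The pairs of the other FGF genes are given without setting them against the Fgfr2 name, which holds mostly Ctbp2 tags. Among the receptors, Fgfr1 had 276 pairs in Input and 372 in RADIP. These passed under their own name, unlike the tags in the span of Fgfr2, and the counts cannot be set against each other. Fgfr3 had 7 and 8, Fgfrl1, a receptor-like protein with no kinase domain, had 12 and 8, and Fgfr4 had none. Of these 4 receptor genes 3 could be compared, with 0 higher and 1, Fgfrl1, lower by the fold limit, and a median log2 ratio of 0.08. Over all names 17.5% were higher and 25.5% lower, with a median of -0.09, and the counts of the lists that follow are to be read against these shares. The median cis distance of Fgfr1 was 38.0 and 80.0 kb.

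Of 10 FGF ligand genes, 5 had no pairs in either library and 2 had at least 10 pairs together and were found in both, with 0 higher and 1 lower by the fold limit. Fgf1 had 257 and 321 pairs, a log2 ratio of 0.20 (-0.04 to 0.45), and Fgf13, an intracellular member of the family, had 115 and 43, -1.54 (-2.08 to -1.02). Of the 15 transducers and feedback inhibitors, 10 could be compared, 3 were higher by the fold limit and 1 lower, against 17.5% and 25.5% of all names, and their median was 0.06. The adaptor gene Frs2 had 91 and 148 pairs (0.58, 0.20 to 0.98) and the feedback inhibitor gene Spry4 had 40 and 63 (0.54, -0.06 to 1.15). The exchange factor gene Sos1 had 102 and 49 (-1.17, -1.70 to -0.67). Gab1, Spred2 and Etv5, with 1219 and 1127, 909 and 864, and 890 and 1098 pairs, had log2 ratios of -0.23, -0.19 and 0.19.

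Of 19 genes of the GALNT family, 5 had no pairs under their own names, Galnt2 among them, and 11 could be compared, with 3 higher and 3 lower by the fold limit, against 17.5% and 25.5% of all names, and a median of 0.14. Galnt7 had the most pairs, 282 and 338. The tags in the span of Galnt2 were listed under the pooled name and are not comparable. They reached 9 pairs, the lowest count under that name, in 24 and 31 of the 176 and 222 bins that hold them. How many bins they would have under their own name is not known. Galntl6 (49 and 97 pairs, 0.87, 0.36 to 1.39), Galnt14 (41 and 78, 0.81, 0.25 to 1.39) and Galnt16 (38 and 63, 0.61, 0.01 to 1.23) were higher. Galnt1 was lower, with 147 and 89 pairs (-0.84, -1.24 to -0.45).

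The cell label was set against markers. Of 10 stem cell marker genes, 4 had pairs in Input and 5 in RADIP, 2972 and 3103 pairs in all, led by Esrrb with 2388 and 2500. Pou5f1 and Nanog, defining markers of these cells, had 0 pairs in both libraries, and Sox2 had 0 and 8. These 3 models cover 4.755, 7.145 and 2.057 kb, while that of Esrrb covers 160.5 kb, and the effect of length was not tested. A count of 0 means that no pair passed the limit, not that the RNA is absent. Of 8 marker genes of other cells, 1 had pairs in Input (9 pairs) and 3 in RADIP (43 pairs in all, 21 of them for Pax6).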

How the data were processed

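H3K27me3-RADIP and Input pairs of PGK12.1 cells were analysed, with the 8 labelled libraries of each group merged by the authors into 1 table. As the methods and the submitters' processing notes state, reads were split at the bridge adaptor and mapped to mm10 with BWA 0.7.15-r1140, unique tags (MAPQ 37) were kept, RNA tags were named by GENCODE M25 genes and DNA tags were placed in 25-kb bins. The authors deposited pairs with a q-value of at most 0.1 from a negative binomial model, so pairs that missed this limit were not analysed here. CASAVA 1.8.2 and STAR 2.5.0a are also named in the notes.

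Each line was counted as 1 pair, in Python 3.11.15 with pandas 2.3.3, numpy 2.4.6, scipy 1.17.1 and matplotlib 3.10.9. Tag centres gave distances and bins. GENCODE M21 and RefSeq supplied gene spans in the same build, with Galnt2l matched by its identifier (Gm20388 in M21). The depth was 1305107 (Input) and 1415135 (H3K27me3-RADIP) pairs, of which 3 make 0.00023% and 0.000212%. Shares have Wilson intervals, levels exact Poisson intervals and ratios exact conditional intervals, at 95%. They cover counting error only, since the tables carry no molecular identifier. Scripts were tested on simulated data. No test between groups was possible.

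Members and lists were chosen with earlier results of these data known. Named genes are both members, same-strand genes in the 3 leading parts of each model, genes at the model ends, list genes with at least 50 pairs, and the 5 names with the most similar bins. Fam53b, Cpxm2, Eef1akmt2, Cox4i1, Rab4a, Urb2, Zfpm1, Cdk10, 6430548M08Rik, Crispld2, Irf8, Pde4d, 2310057M21Rik, Chst15, Fgfr3, Fgfrl1, Fgfr4, Pou5f1, Nanog, Sox2 and Pax6 were named after their values were seen. Alternatives were the q-value limit, repeated pairs, scaling, distance measure and limit, step size and position, the minimum of pairs, and leaving out tags in other genes.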

Additional observations from a re-analysis of the deposited data

How the results depend on the processing

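Of 49 alternative values, 22 moved by less than their counting interval and 27 by more. None of the alternatives for a log2 ratio, the only values that could change sign, did so. The log2 ratio of Fgfr2 (0.36) was 0.42 at a q-value of at most 0.01, 0.44 with trimmed mean scaling, 0.26 without tags in other same-strand genes and, chosen after seeing the data, 0.24 without tags inside Ctbp2. That of Galnt2l (0.33) was 0.41 with trimmed mean scaling. None of these reached 0.5.

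The share of Fgfr2 pairs over 100 kb (72.02% in Input and 79.4% in H3K27me3-RADIP) was 69.5% and 78.5% at the stricter q-value, 51.3% and 55.8% without tags in other genes, and 59.6% and 64.85% without tags inside Ctbp2. Over 200 kb it was 65.0% and 72.95%. For Galnt2l (52.0% and 56.5%) it was 42.1% and 46.1% over 200 kb, and 39.0% and 43.1% without tags in other genes. The share of the leading part of Fgfr2 (55.8% and 58.2%) was 42.5% and 44.2% with steps shifted by 50 kb, and 68.9% and 71.0% in 200-kb steps. In Input it was 54.8% at the stricter q-value. For Galnt2l (8.26% and 8.16%) it was 9.91% and 10.2% with shifted steps, and 13.3% and 13.4% in 200-kb steps.

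Names past the fold limit numbered 3768 (1534 higher and 2234 lower), 3716 with trimmed mean scaling (1787 and 1929), and 2123 of 5540 with at least 50 pairs (822 and 1301), where fewer names were tested. The causes of the other shifts were not tested. No paired analysis was possible because the authors merged the libraries of each group, and no library could be left out for the same reason. At this depth a bin with fewer than 9 pairs of either name was not listed.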
